A study of Homo sapiens with 12 samples.

Results

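The genes described here make the lysosome and its proton pump: 48 genes picked by symbol from a count table of 28278 genes, all 48 of which were among the 15805 genes with enough reads to test. They comprise 23 acid hydrolases, 6 proteins of the lysosomal membrane, 15 genes of the proton pump, 3 activator and carrier proteins, and the transcription factor TFEB. Lysosomes are acidic compartments in which proteins, sugars, lipids and sulfated polymers are broken down by hydrolases. The V-ATPase pumps the protons that keep them acid: its membrane sector V0 carries the protons and its cytosolic sector V1 burns the ATP. Many of these genes carry the palindromic CLEAR element in their promoters, through which TFEB and its relatives MITF and TFE3 switch them on. HRG1, the product of SLC48A1, is a heme transporter of the endolysosomal membrane, which places it in the compartment that these 48 genes build.

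RNA was sequenced from K562, an established human erythroleukaemia line that makes fetal haemoglobin. The 4 groups of 3 libraries were WT cells and HRG1-KO cells, each either untreated or given 0.75 mM sodium butyrate, an inhibitor of histone deacetylases that drives K562 cells towards haemoglobin synthesis. Butyrate was given 24 h after plating and again 48 h later, and cells were lysed 6 h after the second dose, a time labelled day 8 of differentiation. How the knockout was made, how many clones it rests on, and whether the 3 libraries of a group came from separate cultures are not stated, so p-values measure only the spread between these libraries, which may be technical, and a difference between genotypes cannot be told apart from one between clones.

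Libraries held 19963594 to 30348538 counts assigned to genes. SLC48A1 stood at 73.5, 82.2 and 65.4 CPM, counts scaled to the library's total, in untreated WT and at 2.94, 8.32 and 6.55 in untreated HRG1-KO cells, a log2 difference of -3.63 ± 0.35 (SE; edgeR, adjusted p = 1.82e-05). The erythroid markers GATA1, KLF1, TAL1, HBG1, HBG2 and TFRC were present in all 12 libraries. Of 7 monocyte and macrophage markers, CD14, CD163 and MRC1 held at most 21 counts in any library, while ITGAM held 341 to 3340 counts in the HRG1-KO libraries and 2 to 221 in WT. LYZ went the other way in untreated cells, at a mean of 14.5 CPM in WT and 5.12 in HRG1-KO cells, and CD14 was at 0.362 and 0.0964. The summed level of these 7 markers ran from 13.4 to 32.7 CPM in WT and from 21.5 to 135 in HRG1-KO libraries, and its part in the results was not tested. The libraries numbered 1 carried more of the ribosomal gene RNA28SN5 than the others of their group, up to 5.63% of counts, and treated WT library 1 stood apart from libraries 2 and 3 for many genes here. In bulk RNA, fewer cells that express a gene and less of its RNA per cell cannot be told apart.

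The CLEAR core TCACGTGA was found in the promoters of 6 of the 35 members with a RefSeq promoter (GRCh38.p14; 250 bases before to 50 after the start, both strands). That is 17.1% of them, against 1.04% of all 27305 promoters of that length. The shorter E-box CACGTG, which lies inside that core, was in 10 of the 35 (28.6%) against 7.43%. The members with the core serve all 3 classes: the hydrolases CTSA and GAA, the membrane proteins LAMP1 and MCOLN1, and the pump subunits ATP6V0D1 and ATP6V1G1. Their stretches are shown because the members' levels below can be read beside them. Capitals mark TCACGTGA, or CACGTG alone in the first match of CTSA, and each line runs 5′ to 3′ on the gene's strand. The stretches are cut and do not show every match. LAMP1 has a further TCACGTGA that begins 2 bases before the start, and GAA has one that begins 32 bases before it. LAMP1 also has CACGTG at 192, 176, 159 and 142 bases before the start, outside its stretch.
LAMP1 (chr13:113297174-113297238, plus strand): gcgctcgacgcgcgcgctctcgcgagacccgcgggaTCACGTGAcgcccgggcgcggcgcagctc
MCOLN1 (chr19:7522546-7522623, plus strand): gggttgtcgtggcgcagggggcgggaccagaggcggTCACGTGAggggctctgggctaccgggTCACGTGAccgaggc
CTSA (chr20:45891273-45891334, plus strand): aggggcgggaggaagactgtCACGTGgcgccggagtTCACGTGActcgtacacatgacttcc
GAA (chr17:80101468-80101547, plus strand): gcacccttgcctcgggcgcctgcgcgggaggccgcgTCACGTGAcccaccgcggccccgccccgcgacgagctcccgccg
ATP6V0D1 (chr16:67481174-67481253, minus strand): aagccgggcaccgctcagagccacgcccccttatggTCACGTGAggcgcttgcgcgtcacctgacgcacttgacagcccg
ATP6V1G1 (chr9:114587674-114587753, plus strand): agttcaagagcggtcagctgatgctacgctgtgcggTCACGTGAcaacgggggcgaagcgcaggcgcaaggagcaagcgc

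Between untreated genotypes the log2 differences of these 6 were 1.91 for LAMP1, 0.92 for GAA, 0.71 for ATP6V0D1, 0.30 for ATP6V1G1, 0.07 for CTSA and -0.24 for MCOLN1. LAMP1 alone of them passed there by edgeR without the block. TFEB itself was scarce, at 5.90, 7.70 and 9.14 CPM in untreated WT and 0.856, 2.33 and 5.42 in untreated HRG1-KO cells. All 3 knockout values lay below all 3 WT values, yet the log2 difference of -1.39 ± 0.67 passed in edgeR over all 12 libraries only with the library number as a block (adjusted p = 0.166 without and 0.00559 with the block).

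In untreated WT cells the members spanned a wide range of levels. Per kilobase of exon, the sialidase NEU1 led at 315 ± 56 CPM per kb (SD, n = 3), followed by the pump subunit ATP6V1F at 276 and prosaposin (PSAP), the precursor of several lipid-hydrolase activators, at 250. LIPA had no reads, the sulfatase ARSB stood at 0.526 CPM per kb and TFEB at 1.70. In untreated HRG1-KO cells PSAP ranked first and NEU1 second. The members together took 0.481% to 0.579% of all counts in untreated WT and 0.532% to 0.652% in untreated HRG1-KO libraries. With butyrate the share was 0.670% to 0.818% in WT and 0.717% to 0.767% in HRG1-KO libraries, above every untreated library. A few abundant genes weigh heavily in that share. In WT the members summed to a mean of 5377 CPM untreated and 7436 treated. Of this PSAP held 719 and 1412, NEU1 644 and 1129, and CTSB 207 and 492, while 13 of the 48 members had a log2 difference below 0.

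**Figure D1:**
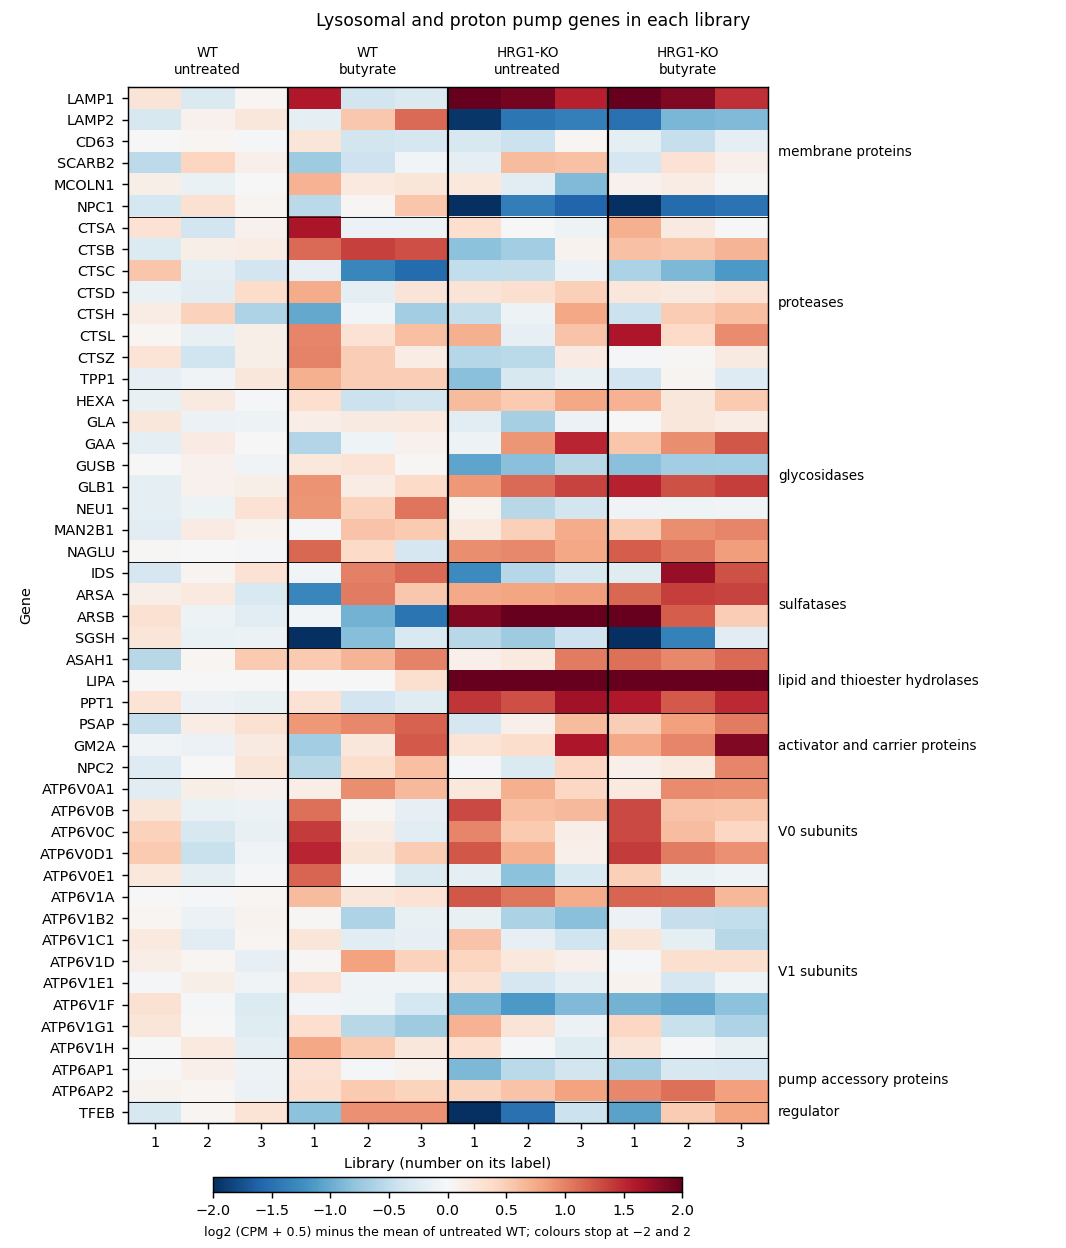
Each row is a gene and each column a library, and the colour gives log2 (CPM + 0.5) minus the mean of untreated WT, with colours stopping at -2 and 2. LIPA, ARSB, PPT1 and LAMP1 were high and LAMP2 and NPC1 low in all 6 HRG1-KO libraries, and WT butyrate library 1 differed from libraries 2 and 3 in several V0 rows.

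Lysosomal genes differed between the genotypes in both directions. In untreated cells 8 of 48 members were higher in HRG1-KO cells (16.7%; 11.7% of all tested genes were) and 5 were lower (10.4%; 10.9% of all). In treated cells 7 were higher (14.6%; 10.1% of all) and 6 were lower (12.5%; 8.89% of all). The test was edgeR's quasi-likelihood test with Benjamini-Hochberg adjustment over all tested genes. The number of members that differed was thus not far from that among genes at large. Both genotype comparisons called LIPA, ARSB, PPT1, GLB1, ATP6V1A and ATP6AP2 as higher and LAMP2, NPC1, GUSB and ATP6V1F as lower. The share of all tested genes called in both was not computed. The 2 comparisons used different libraries. With the library number as a block, 23 members were called in untreated cells (47.9%; 33% of all) and 20 in treated cells (41.7%; 29.2% of all). Groups did not overlap for 23 members untreated (47.9%; 42.3% of all) and for 17 treated (35.4%; 33.9% of all). The median log2 difference over the members was 0.12 untreated and 0.05 treated, beside 0.02 and 0.00 over all tested genes.

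**Figure D2:**
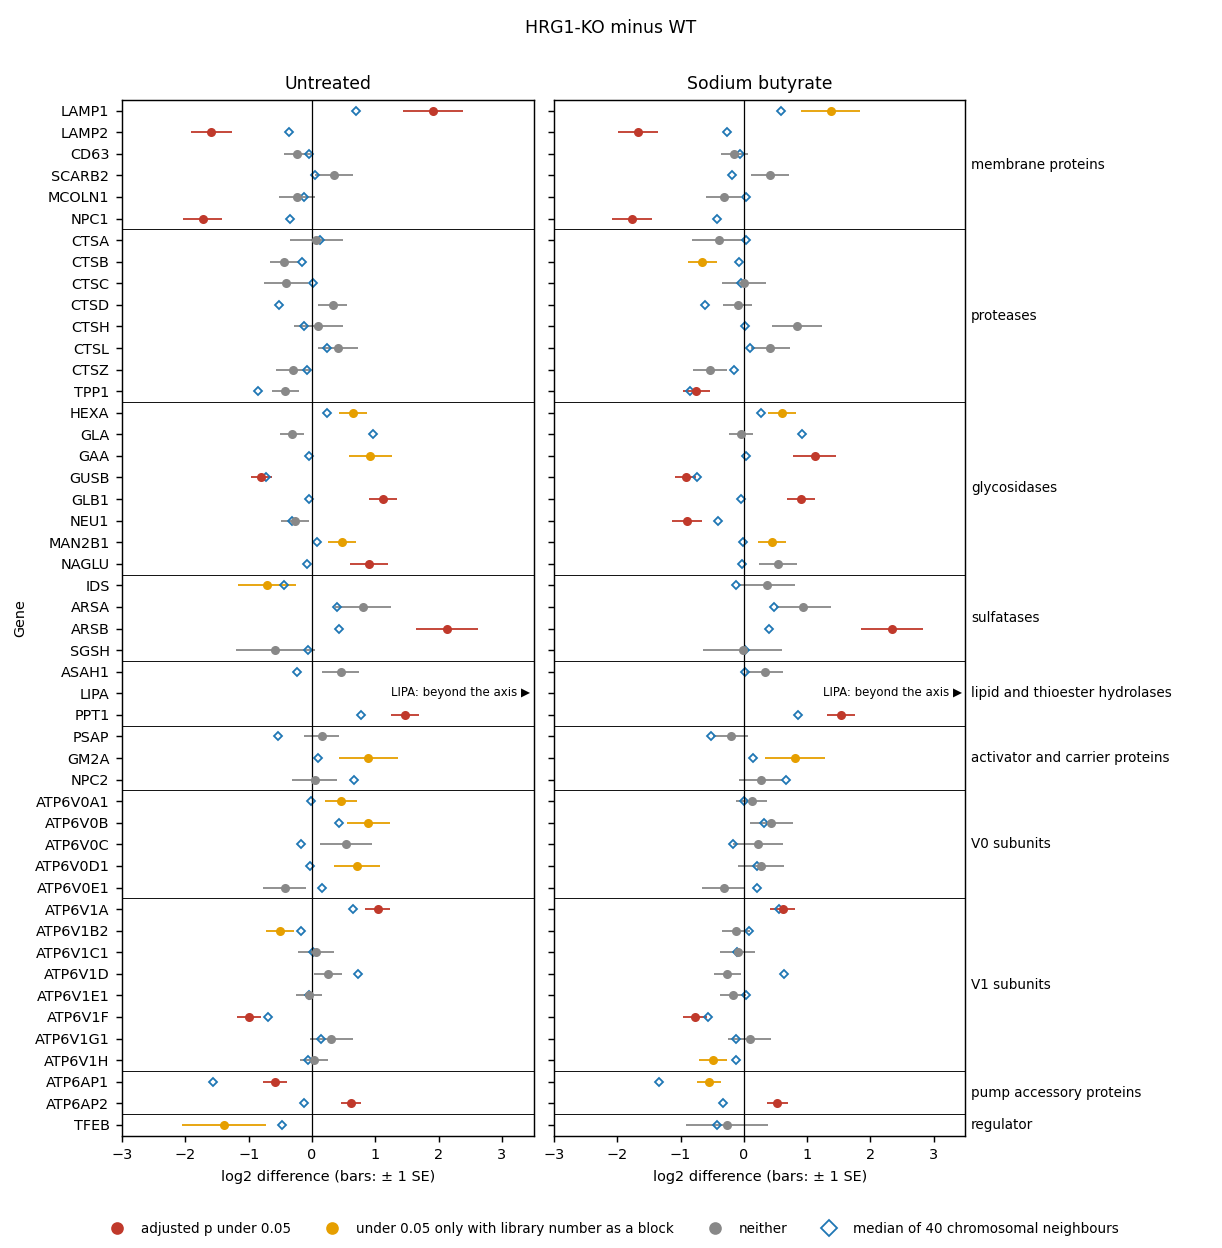
Points give the log2 difference HRG1-KO minus WT of each member with its SE, untreated on the left and with butyrate on the right, and open diamonds give the median difference of the 40 nearest tested genes on the chromosome. The LIPA points lie beyond the axis. GUSB and ATP6V1F lie near their diamonds, while GLB1, ARSB, LAMP2 and NPC1 lie far from theirs.

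Among the hydrolases, 5 of 23 rose and 1 fell in untreated HRG1-KO cells, and 5 rose and 3 fell in treated ones. Those are 21.7% higher and 4.35% lower untreated (11.7% and 10.9% of all tested genes) and 21.7% and 13% treated (10.1% and 8.89% of all). Their median log2 difference was 0.33 untreated and 0.36 treated (0.21 and 0.35 without LIPA). The 2 largest rises that did not start from 0 were in a sulfatase, ARSB, and a thioesterase, PPT1.

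LIPA, the acid lipase that frees cholesterol from its esters in the lysosome, was the sharpest difference. Untreated WT libraries held 0, 0 and 0 counts and untreated HRG1-KO libraries 336, 424 and 872 counts, or 18.0, 20.2 and 29.2 CPM. Treated WT libraries held 0, 0 and 4 counts, and treated HRG1-KO libraries stood at 24.1, 30.2 and 28.7 CPM. Every HRG1-KO library thus held LIPA RNA and 5 of the 6 WT libraries held none. Against a floor of 3 counts per library, the untreated level was at least 167-fold higher in HRG1-KO cells (edgeR, adjusted p = 8.17e-06). In treated cells the 4 WT counts lay in 1 library, and the ratio of summed counts had an exact interval of 203 to 1912 that covers counting error only (edgeR, adjusted p = 1.39e-05, a call that remained in all 6 fits that left out a library). Without that library treated WT held no LIPA reads. The 40 nearest tested genes had a median log2 difference of -0.02 untreated, and none of them differed as much as LIPA. The promoter at its RefSeq start is shown because the gene had reads throughout one genotype and almost nowhere in the other. That start lies at the upper end of a long annotated span (chr10:89213569-89414557). Counts per gene do not show which start the RNA came from. Capitals mark CG dinucleotides, 21 in these 160 bases before the RefSeq start, against a median of 7 over all promoters. Methylation of these bases was not measured.
LIPA (chr10:89414680-89414839, minus strand): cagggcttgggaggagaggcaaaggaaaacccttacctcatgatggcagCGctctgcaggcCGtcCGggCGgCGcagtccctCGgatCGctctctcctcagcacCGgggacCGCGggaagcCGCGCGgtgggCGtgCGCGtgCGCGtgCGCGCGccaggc

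PPT1 removes fatty acids from palmitoylated proteins. It stood at 182, 138 and 135 CPM in untreated WT and at 404, 369 and 482 in untreated HRG1-KO cells. With butyrate the values were 184, 115 and 127 in WT and 457, 352 and 424 in HRG1-KO cells. The genotypes did not overlap in either state, and butyrate differed from untreated by -0.09 in WT and -0.03 in HRG1-KO cells on the log2 scale. The log2 difference was 1.47 ± 0.22 untreated and 1.53 ± 0.22 treated (edgeR, adjusted p = 0.000534 and 0.000518). Genes around PPT1 on chromosome 1 (chr1:40071461-40097727) were higher too, with a median of 0.77 untreated. Exons of CAP1 on the other strand cover 27.3% of PPT1's exons, and whether counting used strand is not given, so part of these counts may be CAP1's.

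ARSB cuts sulfate from dermatan and chondroitin sulfate. It was near the bottom of the range in untreated WT at 5.80, 4.22 and 3.90 CPM and reached 17.9, 23.02 and 20.1 in untreated HRG1-KO cells. The log2 difference was 2.13 ± 0.49 (edgeR, adjusted p = 0.00719), and it was 2.34 ± 0.49 with butyrate (adjusted p = 0.00546). Treated HRG1-KO libraries spread widely, at 21.9, 11.3 and 6.61 CPM, while treated WT libraries stood at 4.41, 2.13 and 1.33. Library 1 was the highest in both treated groups. The lower 2 treated HRG1-KO values remained above every treated WT value.

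Glycosidases split. GLB1, the lysosomal beta-galactosidase, rose from 90.5, 110 and 112 CPM to 189, 228 and 265 in untreated HRG1-KO cells, a log2 difference of 1.12 ± 0.22 (edgeR, adjusted p = 0.00262). In treated cells it was 0.90 ± 0.22 higher (adjusted p = 0.0119, lost without WT butyrate library 2 or 3, at up to 0.0585). Its neighbours on chromosome 3 had a median of -0.05, while all tested genes of that chromosome had medians of 0.453 untreated and 0.452 treated. GUSB, the beta-glucuronidase, fell from 139, 148 and 134 CPM to 67.1, 78.6 and 95.6, a log2 difference of -0.80 ± 0.17 (edgeR, adjusted p = 0.0047). Its 40 neighbours on chromosome 7 fell by nearly as much, with a median of -0.73, and 19 of them fell further. GUSB also has 11 named pseudogenes, among which its reads could be split.

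GAA, the acid glucosidase that degrades glycogen, passed in edgeR over all 12 libraries in treated but not untreated cells, at 31.4, 44.7 and 50.6 CPM in WT and 70.4, 91.1 and 114 in HRG1-KO cells. The log2 difference was 1.12 ± 0.34 (edgeR, adjusted p = 0.0382), and the call remained in 1 of 6 fits that left out a library, the one without KO butyrate library 1. In untreated cells the groups overlapped, and the difference of 0.92 ± 0.34 did not pass without the block (adjusted p = 0.0731, 0.0157 with it, and 0.00588 without the libraries numbered 1). NAGLU, which degrades heparan sulfate, was higher in untreated HRG1-KO cells at 37.0, 37.9 and 33.2 CPM against 19.7, 19.3 and 18.9 (log2 difference 0.90 ± 0.30, edgeR, adjusted p = 0.0484). That call was lost whichever library was left out, with an adjusted p of up to 0.133. HEXA and MAN2B1 passed in both states in edgeR over all 12 libraries with the block and not without it: HEXA was 0.65 and 0.60 higher on the log2 scale and MAN2B1 0.48 and 0.44. HEXA also passed untreated in DESeq2 (adjusted p = 0.0413) and treated in edgeR without the libraries numbered 1 (0.0179).

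NEU1, the most abundant hydrolase in untreated WT, was lower in treated HRG1-KO cells. It stood at 1172, 875 and 1339 CPM in treated WT and 609, 599 and 612 in treated HRG1-KO cells. The treated knockout libraries were nearly equal to each other and all below the WT libraries. The log2 difference was -0.90 ± 0.23 (edgeR, adjusted p = 0.0153, and 0.054 without WT butyrate library 3). In untreated cells it was -0.27, which did not pass, and whether the genotype difference changed with butyrate did not pass (interaction log2 difference -0.63 ± 0.32, edgeR, adjusted p = 0.9998).

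None of the 8 proteases passed between genotypes in untreated cells (edgeR; none at an unadjusted p under 0.05, none in DESeq2 and none with the block), where their median was -0.12. In treated cells TPP1, a tripeptidyl peptidase, was lower at 97.7, 132 and 107 CPM against 208, 180 and 179. Its log2 difference of -0.75 ± 0.21 (edgeR, adjusted p = 0.0233) was lost when KO butyrate library 1, KO butyrate library 3 or WT butyrate library 2 was left out (up to 0.0823). TPP1's neighbours on chromosome 11 had a median of -0.85, so that relative to them the difference was 0.09. The cysteine protease CTSB was lower in treated HRG1-KO cells by -0.66 ± 0.23 on the log2 scale (edgeR, adjusted p = 0.0696 without and 0.0205 with the block, and 0.0363 in DESeq2).

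The 2 main glycoproteins of the lysosomal membrane, LAMP1 and LAMP2, went opposite ways. LAMP1 rose from 69.8, 47.5 and 59.7 CPM in untreated WT to 270, 221 and 173 in untreated HRG1-KO cells, while LAMP2 fell from 142, 190 and 209 to 45.7, 65.3 and 69.1. Neither gene's groups overlapped. The log2 difference of LAMP1 was 1.91 ± 0.48 (edgeR, adjusted p = 0.012, and 0.0521 without WT untreated library 2), beside a median of 0.70 for its neighbours and 0.94 for all tested genes of chromosome 13. That of LAMP2 was -1.59 ± 0.32 (adjusted p = 0.0031), beside -0.37 for its neighbours on the X chromosome, of which 1 fell further.

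With butyrate the LAMP2 difference was -1.67 ± 0.32 (edgeR, adjusted p = 0.00281). LAMP1 missed the threshold there, at 1.37 ± 0.47 (adjusted p = 0.0589, 0.00243 with the block, and 0.021 in DESeq2). Treated WT library 1 held 179 CPM of LAMP1, against 45.2 and 47.5 in libraries 2 and 3 and 327, 212 and 162 in treated HRG1-KO cells. Without that library the difference passed, and without all libraries numbered 1 it was 1.99 (adjusted p = 0.000191).

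The ratio of LAMP1 to LAMP2, per kilobase, put the genotypes apart in all 12 libraries. This ratio is made from the opposite differences just given, in the same libraries, so it is not separate support for them. It was 1.01, 0.512 and 0.584 in untreated WT and 12.1, 6.93 and 5.12 in untreated HRG1-KO cells. With butyrate it was 2.34, 0.355 and 0.248 in WT and 10.6, 4.61 and 3.44 in HRG1-KO cells. LAMP2 was thus the more abundant in 4 of 6 WT libraries and LAMP1 in every HRG1-KO library. Library 1 had the highest ratio in each group. It also had the highest share of RNA28SN5 in each group, and the part of that in the ratio was not tested. The sum of both per kilobase was 51.6 to 60.0 CPM per kb in untreated WT and 76.5 to 108 in untreated HRG1-KO libraries.

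NPC1, the membrane protein that exports cholesterol from lysosomes, fell in both states. Untreated it stood at 50.9, 80.4 and 67.3 CPM in WT and 13.9, 24.7 and 21.3 in HRG1-KO cells, and treated at 44.4, 66.5 and 95.9 in WT and 15.3, 22.2 and 23.01 in HRG1-KO cells. All 6 HRG1-KO values lay below all 6 WT values. The log2 difference was -1.73 ± 0.31 untreated and -1.77 ± 0.31 treated (edgeR, adjusted p = 0.00176 and 0.00191), beside medians of -0.35 and -0.42 for its neighbours on chromosome 18. Its soluble partner NPC2, which hands cholesterol to NPC1, stood at 14.7 ± 2.63 CPM in untreated WT and 15.2 ± 3.91 in untreated HRG1-KO cells (SD, n = 3), groups that overlapped. LIPA, which frees cholesterol, and NPC1, which exports it, thus moved in opposite directions. The other membrane proteins CD63, SCARB2 and MCOLN1, a calcium channel, passed in no comparison, with or without the block.

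**Figure D3:**
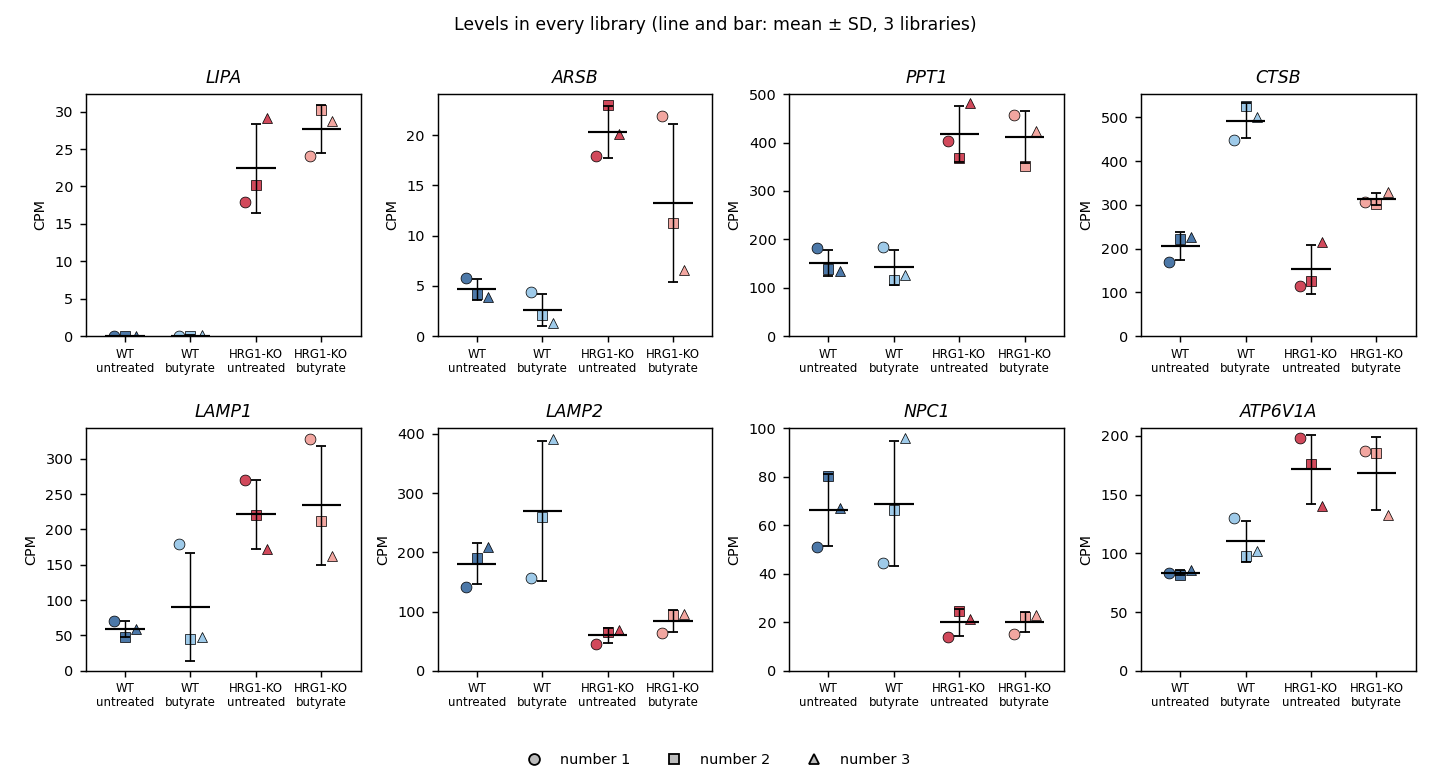
Levels of 8 members in CPM in every library on linear axes that start at 0; symbols give the library number, and line and bar give mean ± SD of 3 libraries. LIPA is at or near 0 in all WT libraries, LAMP1 is higher and LAMP2 lower in HRG1-KO than in WT cells except that LAMP1 of WT butyrate library 1 reaches the HRG1-KO values, and CTSB is higher with butyrate in both genotypes.

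Of the 15 pump genes, 2 rose and 2 fell in untreated HRG1-KO cells, 13.3% each way, near the 11.7% and 10.9% of all tested genes. The median was 0.25 untreated and -0.10 treated. ATP6V1A, the V1 subunit that binds ATP for catalysis, rose from 83.0, 81.8 and 85.7 CPM to 198, 176 and 141, a log2 difference of 1.04 ± 0.20 (edgeR, adjusted p = 0.00248). ATP6V1F, which lies in the central stalk of V1, fell from 267, 210 and 177 CPM to 114, 96.6 and 117, a difference of -1.0 ± 0.19 (adjusted p = 0.00219). Subunits of one sector thus differed in opposite directions, each without overlap. Both lay in the direction of their chromosomal surroundings: the neighbour median was 0.64 for ATP6V1A on chromosome 3 and -0.69 for ATP6V1F on chromosome 7.

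With butyrate ATP6V1F was -0.77 ± 0.19 lower (edgeR, adjusted p = 0.0122) and ATP6V1A was 0.61 ± 0.20 higher (adjusted p = 0.0479). The latter was close to its neighbours' median of 0.55, and it passed in only 2 of 6 fits that left out a library, those without KO butyrate library 3 and without WT butyrate library 1. ATP6AP2, the accessory protein also known as the prorenin receptor, rose from 55.8, 54.5 and 48.7 CPM to 72.5, 78.5 and 92.9 untreated (0.62 ± 0.16, edgeR, adjusted p = 0.0161). That call was lost without KO untreated library 2 or 3 or without WT untreated library 3 (up to 0.0903). With butyrate it was 0.53 ± 0.16 higher (adjusted p = 0.0376), lost whichever library was left out. The other accessory protein, ATP6AP1, fell from 153, 165 and 144 CPM to 82.3, 106 and 118 untreated (-0.59 ± 0.19, edgeR, adjusted p = 0.0368), and passed in 1 of 6 such fits, without KO untreated library 3. Its 40 neighbours at the end of Xq fell further, with a median of -1.56, so that relative to them ATP6AP1 was 0.97 higher.

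No V0 subunit passed between genotypes in edgeR over all 12 libraries without the block (DESeq2 called none, and 1 untreated and none treated were at an unadjusted p under 0.05). Without the libraries numbered 1, ATP6V0B passed in both states (0.73 and 0.61, adjusted p = 0.0118 and 0.0286). With the block ATP6V0A1, ATP6V0B and ATP6V0D1 were higher in untreated HRG1-KO cells, by 0.46, 0.89 and 0.71 on the log2 scale (adjusted p = 0.0405, 0.00271 and 0.0222). ATP6V0B, part of the proteolipid ring, stood at 127, 97.8 and 99.02 CPM in untreated WT and 267, 163 and 168 in untreated HRG1-KO cells. ATP6V1B2 was lower with the block, by -0.51 (adjusted p = 0.0301), and without the libraries numbered 1 (0.0233).

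The mean log2 level of the 5 V0 genes minus that of the 8 V1 genes was 0.09, -0.24 and 0.00 in untreated WT and 0.35, 0.39 and 0.38 in untreated HRG1-KO cells, which did not overlap. With butyrate it was 0.73, 0.22 and 0.10 in WT and 0.77, 0.69 and 0.71 in HRG1-KO cells, so that WT library 1 reached the HRG1-KO values and libraries 2 and 3 did not. The hydrolases minus the pump genes, leaving out LIPA, gave -0.40, -0.23 and -0.17 in untreated WT and -0.56, -0.18 and 0.25 in untreated HRG1-KO cells. Those ranges overlapped, as did the treated ones.

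**Figure D4:**
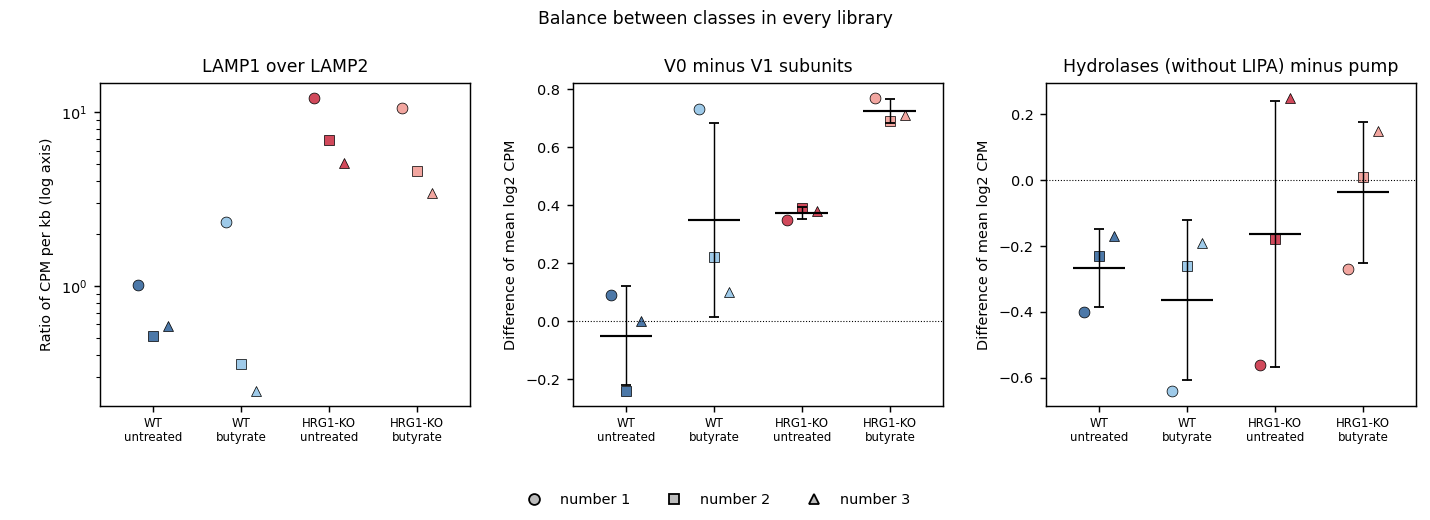
The balances in every library: the ratio of LAMP1 to LAMP2 per kilobase on a log axis, and the difference of mean log2 CPM between V0 and V1 subunits and between hydrolases without LIPA and pump genes; lines and bars in the right-hand panels are mean ± SD. LAMP1 over LAMP2 is above 3 in all HRG1-KO libraries and below it in all WT libraries, and library 1 of treated WT stands with the HRG1-KO libraries in the V0 panel.

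Butyrate changed few members past the test. CTSB, a cysteine protease of broad specificity, rose in both genotypes. It stood at 170, 223 and 226 CPM in untreated WT and 448, 527 and 501 with butyrate, and at 115, 126 and 216 in untreated HRG1-KO cells and 307, 302 and 328 with butyrate. Treated and untreated groups did not overlap in either genotype. The log2 differences were 1.25 ± 0.24 and 1.04 ± 0.24 (edgeR, adjusted p = 0.0204 and 0.0333). Each call was lost in most fits that left out a library: the WT one remained only without WT butyrate library 1 (up to 0.102) and the HRG1-KO one only without KO butyrate library 1 or KO untreated library 3 (up to 0.175). Without the libraries numbered 1 the differences were 1.18 and 0.86 (adjusted p = 0.0179 and 0.05).

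CTSB was the one member called of 48 in each genotype (2.08% higher; 1.8% of all tested genes were higher in WT and 2.8% in HRG1-KO cells). No member was called lower (edgeR; 0.55% and 0.595% of all genes were), although 12 members in WT (25%; 18% of all) and 6 in HRG1-KO cells (12.5%; 19.8% of all) were at an unadjusted p under 0.05 in either direction. DESeq2 called 3 members in WT (6.25%; 8.42% of all) and 2 in HRG1-KO cells (4.17%; 9.73% of all). With the block, 7 members were called in WT (14.6%; 8.61% of all) and 4 in HRG1-KO cells (8.33%; 11.7% of all). Groups did not overlap for 13 members in WT (27.1%; 21.7% of all) and 7 in HRG1-KO cells (14.6%; 24.4% of all). Members above 0 numbered 35 of 48 in WT, with a median log2 difference of 0.42, and 33 in HRG1-KO cells, with a median of 0.17, beside 0.02 and 0.00 over all genes. Without the libraries numbered 1 those medians were 0.17 and 0.13.

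**Figure D5:**
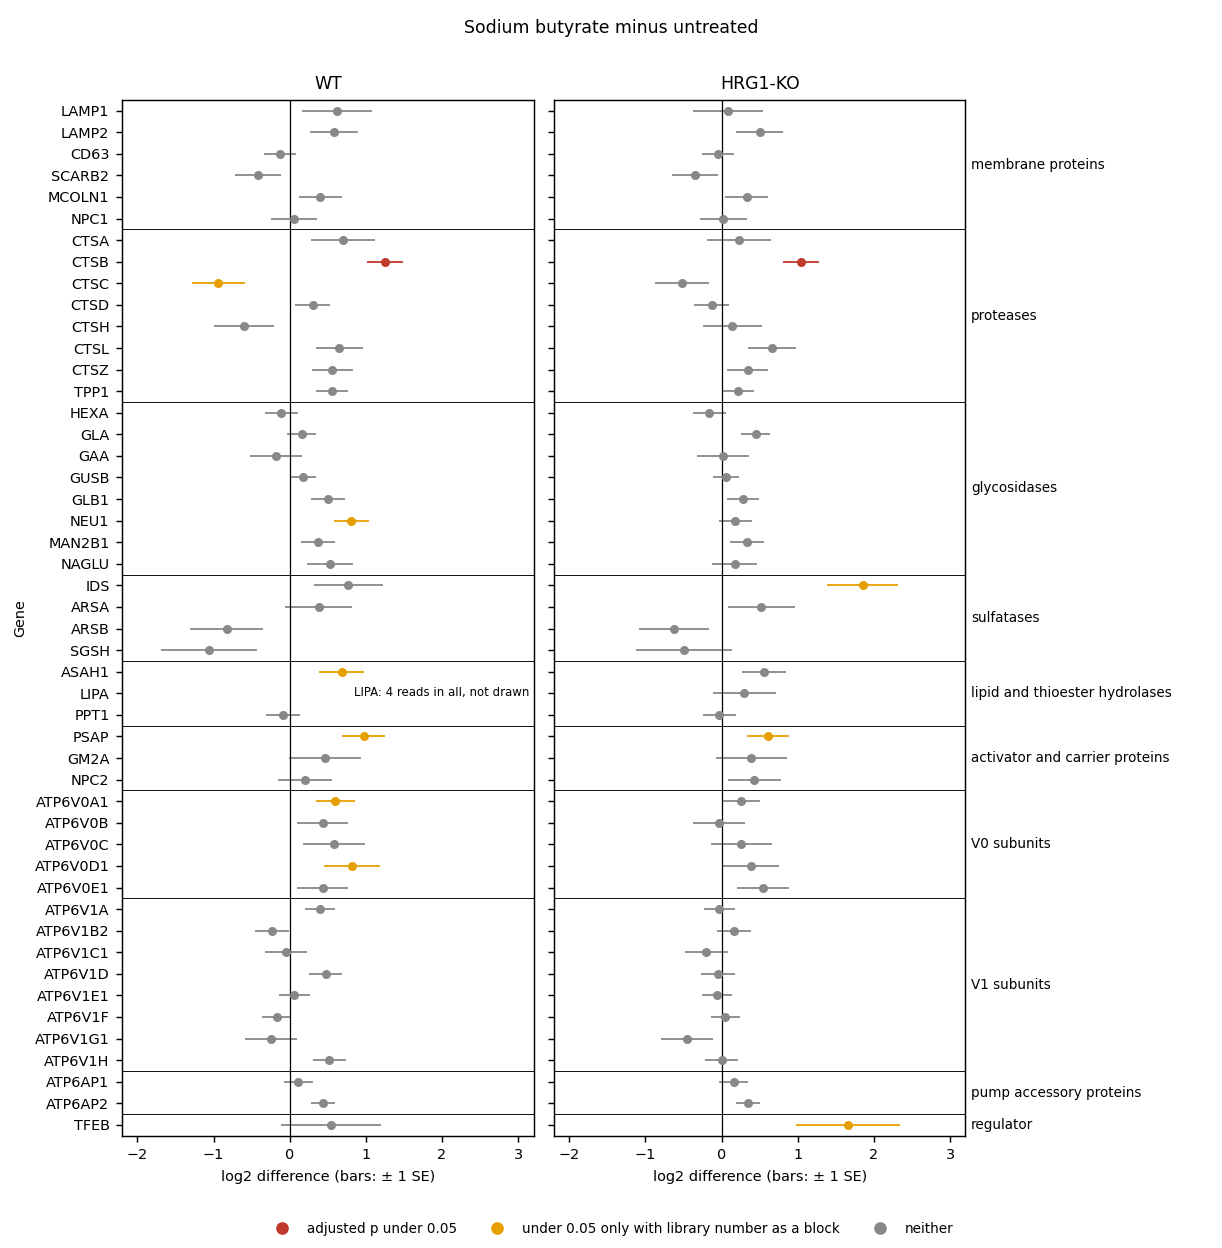
Log2 difference butyrate minus untreated with its SE for each member, WT on the left and HRG1-KO on the right; LIPA is not drawn in WT, where it held 4 counts in all. CTSB alone passed in both panels in edgeR over all 12 libraries without the block, and most points lie to the right of 0 among hydrolases.

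The hydrolases had a median of 0.38 in WT and 0.22 in HRG1-KO cells, the membrane proteins 0.23 and 0.05, and the pump genes 0.43 and 0.05. Without the libraries numbered 1 these medians were 0.16 and 0.12 for the hydrolases, -0.05 and -0.07 for the membrane proteins, and 0.05 and 0.11 for the pump genes, and that of the V0 genes in WT went from 0.58 to 0.19. Treated WT library 1 held 355 CPM of ATP6V0C against 148 and 115 in libraries 2 and 3, and 230 of ATP6V0B against 110 and 96.0. It stood more than 1.5-fold above the mean of libraries 2 and 3 for 16 of 47 members (34%, against 20.8% of all tested genes). For 13 members it stood more than 1.5-fold below that mean (27.7%, against 32.7% of all). No pump gene and no membrane protein was called for butyrate in either genotype by edgeR over all 12 libraries without the block or by DESeq2. Without the libraries numbered 1, edgeR called ATP6V0A1 and ATP6V1D as higher in WT (0.67 and 0.71, adjusted p = 0.049 and 0.0441). At an unadjusted p under 0.05 there were 4 pump genes in WT and 1 in HRG1-KO cells, and no membrane protein.

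In edgeR over all 12 libraries, 6 further members passed in WT with the block and not without it. One was PSAP, at 509, 780 and 868 CPM untreated and 1279, 1361 and 1594 treated in WT. Its log2 difference was 0.97 ± 0.28 in WT (edgeR, adjusted p = 0.0933 without and 0.005 with the block, and 0.0146 in DESeq2) and 0.61 ± 0.28 in HRG1-KO cells (0.244 and 0.0291). PSAP's WT groups did not overlap. In WT the block also called NEU1 (0.81; adjusted p = 0.00763 in DESeq2), the acid ceramidase ASAH1 (0.68), ATP6V0D1 (0.82) and ATP6V0A1 (0.60) as higher and the dipeptidyl peptidase CTSC (-0.94) as lower. Without the libraries numbered 1, CTSC was called too (adjusted p = 0.00841).

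In HRG1-KO cells the iduronate sulfatase IDS stood at 9.69, 15.9 and 19.1 CPM untreated and 20.3, 81.9 and 58.9 treated. The groups did not overlap by a narrow margin, and the log2 difference of 1.85 ± 0.47 lay at the threshold (edgeR, adjusted p = 0.0501, 0.00214 with the block, and 0.002 in DESeq2). Exons of another gene cover 17% of IDS and it has 1 named pseudogene, so its counts are uncertain. TFEB was 1.66 ± 0.68 higher (edgeR, adjusted p = 0.196, 0.0154 with the block, and 0.0243 without the libraries numbered 1), at 3.31, 10.8 and 13.2 CPM treated, and library 1 of the treated group overlapped the untreated one. The sulfatase SGSH had the lowest WT value, -1.06 ± 0.63, which did not pass with or without the block. It stood at 2.13 CPM in treated WT library 1 beside 12.9 and 19.1, and the value was -0.45 without the libraries numbered 1.

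The difference between genotypes in the response to butyrate did not pass for any member (edgeR, 0 of 48; 0% of all genes). No member was at an unadjusted p under 0.05, where 4.16% of all genes were, and DESeq2 called no member and 0.512% of all genes. With the block no member and 0.019% of all genes passed. The member farthest above 0 was TFEB, at 1.12 ± 0.93. LIPA, at the floor in WT, gives no interpretable value here. The lowest of the others was NEU1, at -0.63.

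Of 111 further genes of the pathway, 103 were tested, in 5 lists. Among 31 other lysosomal hydrolases 7 were higher and 2 lower in untreated HRG1-KO cells (22.6% and 6.45%; 11.7% and 10.9% of all tested genes). LGMN, an asparaginyl endopeptidase, stood at 0.0542, 0.325 and 0.975 CPM in untreated WT and 27.2, 35.2 and 66.8 in untreated HRG1-KO cells (log2 difference 6.45 ± 1.10, edgeR, adjusted p = 0.00114). CTSV and the acid phosphatase ACP5 were 4.43 and 4.14 higher, and GALC, which degrades galactosylceramide, was 2.66 higher. Those 4 calls remained in all 6 fits that left out a library. HYAL2, ARSG and PRCP were also higher, while RNASET2 (-2.02) and DNASE2 (-0.96) were lower, the calls of ARSG and PRCP remaining only without KO untreated library 1 and that of DNASE2 only without WT untreated library 1. With butyrate LGMN, GALC, HYAL2 and PRCP were higher and none was lower, LGMN's call being lost without KO butyrate library 3 or WT butyrate library 2. The carboxypeptidase SCPEP1 rose with butyrate in both genotypes, from 16.0, 10.0 and 17.7 CPM to 44.8, 64.0 and 59.9 in WT (1.95 ± 0.28, adjusted p = 0.00708) and by 2.21 ± 0.29 in HRG1-KO cells (adjusted p = 0.00365). CTSV rose with butyrate in WT, by 3.52, a call that remained only without WT butyrate library 1 or WT untreated library 1.

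On a list of 29 other proteins of the lysosomal membrane, SLC46A3 (2.45) and ABCD4 (0.86) were higher and CD68 (-1.64) was lower in untreated HRG1-KO cells by edgeR. CD68, which rose with butyrate in HRG1-KO cells (2.74 ± 0.46, adjusted p = 0.00995), is also a macrophage gene. SLC11A1 (2.28) and LAPTM4A (0.70) rose there too. The calls of CD68, SLC11A1 and LAPTM4A for butyrate remained in 4, 3 and 1 of 6 fits that left out a library, and each was lost without KO butyrate library 2 and KO untreated library 2. With butyrate SLC46A3, ABCD4, LAPTM4B and PIP4P1 were higher in HRG1-KO cells than in WT, PIP4P1's call remaining only without WT butyrate library 1.

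Of 14 other pump subunits and assembly factors, 1 was higher and 3 lower in untreated HRG1-KO cells, and 1 and 5 in treated ones, with medians of -0.43 and -0.52. Those are 7.14% and 21.4% untreated (11.7% and 10.9% of all tested genes) and 7.14% and 35.7% treated (10.1% and 8.89% of all). ATP6V0A2, an isoform of the V0 a subunit, fell from 78.5, 108 and 117 CPM to 20.4, 37.1 and 34.2 (-1.73 ± 0.41, edgeR, adjusted p = 0.00929), while the member ATP6V0A1, its paralog, did not fall. The V1 isoform ATP6V1G2 rose by 2.66 ± 0.64 (adjusted p = 0.00972). The assembly factors CCDC115 and VMA21 were lower in both states, by -1.37 and -0.90 untreated, and DMXL1 and DMXL2, which help V1 join V0, were lower in treated cells. In treated cells the calls of ATP6V0A2, DMXL1 and VMA21 remained in 3, 4 and 2 of 6 fits that left out a library. Of 12 genes of mannose 6-phosphate sorting, GNPTAB, which starts the tag that sends hydrolases to lysosomes, was higher in untreated HRG1-KO cells (0.78), a call that remained in 2 of 6 such fits, while SUMF1 and NAGPA, with larger differences of 1.02 and 0.82, did not pass.

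Of 17 tested genes of the TFEB family and the mTORC1 scaffold on the lysosome, RRAGD stood at 0.217, 1.35 and 2.42 CPM in untreated WT and 22.6, 21.5 and 23.8 in untreated HRG1-KO cells (4.05 ± 0.58, edgeR, adjusted p = 0.000344). RRAGD is a GTPase that brings mTORC1 to lysosomes. MITF was 1.57 ± 0.28 higher (adjusted p = 0.00149), at 13.7, 21.99 and 18.6 CPM in WT and 66.1, 55.2 and 40.2 in HRG1-KO cells. FLCN, which acts on RRAGD, was -0.70 lower, a call that remained in 1 of 6 fits that left out a library. RRAGD and MITF were higher with butyrate too, by 2.92 and 1.21, and TFE3, FLCN and FNIP1 were lower, by -0.85, -0.75 and -0.68, calls that remained in 3, 1 and 1 of 6 such fits.

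Exon overlaps and pseudogenes make some members uncertain, since how reads shared by genes were counted is not given. Other genes' exons cover 72.1% of ATP6V0C and 62% of CTSD, and 35.7%, 29.6% and 27% of MAN2B1, CTSA and HEXA. Of the members called, TPP1 (18.2%) and NAGLU (14.9%) are affected besides PPT1, and NPC1 (3.5%), GLB1 (3%) and ATP6V1A (2.1%) by little, while GUSB has the 11 pseudogenes named above. LIPA, ARSB, LAMP1, LAMP2, CTSB, ATP6V1F, GAA, NEU1, ATP6AP1 and ATP6AP2 overlap no other gene's exons and have no named pseudogene. Some members passed in no comparison in edgeR over all 12 libraries, with or without the block. They included CD63, CTSA, CTSD, CTSH, CTSL, CTSZ, GLA, ARSA and ATP6V1E1.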

How the data were processed

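Per the submitters' processing notes, FastQC 0.12.1 and STAR 2.7.11b were used with the hg38 build; the counting tool, its annotation and its use of strand are not given in the sources used here. The deposited values are whole-number counts per gene and library. Genes passing filterByExpr (minimum count 10) were tested with edgeR 4.0.16 (TMM scaling, quasi-likelihood test, 1 mean per group, all 12 libraries, Benjamini-Hochberg threshold 0.05); DESeq2 1.42.0 (R 4.3.3) and other settings were alternatives. CPM uses TMM-scaled totals; per-kilobase levels use GENCODE 29 exon unions, and positions are GENCODE's. The number on each label was taken to pair libraries, since same-numbered libraries deviated together in every contrast (correlations 0.147 to 0.595). Differently numbered libraries gave -0.512 to 0.343. For genotype with butyrate the ranges overlapped, at 0.315 or more for the same number and up to 0.343 for others, so the pairing is not certain. The block fit adds the library number. No 2 libraries agreed within sampling noise. The script was tested on simulated data. Members and lists were chosen with earlier results of these data known. Members named are those past 0.05 with or without the block, the 3 highest and 3 lowest per contrast, and those a class comparison needed. Of the pathway lists, those named are genes past 0.05, the 2 largest differences per list, and the V0 isoforms set beside the V0 members. Some items on these lists are not reported here.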

Additional observations from a re-analysis of the deposited data

How the results depend on the processing

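With the library number as a block, members called went from 1 to 7 (butyrate in WT), 1 to 4 (butyrate in HRG1-KO), 13 to 23 (genotype, untreated) and 13 to 20 (genotype, treated). For butyrate in WT, DESeq2 called 3 and the fit without the libraries numbered 1 called 5. For butyrate in HRG1-KO cells, DESeq2, DESeq2 size factors and no filter each called 2, the fit without the libraries numbered 1 called 4, and the fit of those 2 groups alone called 0. Leaving out each library in turn gave 0 to 2 members for butyrate in either genotype, 10 to 13 for genotype untreated and 8 to 15 treated (8 without replicate 2 or 3 of treated WT), and 0 for the interaction. The cause was not tested.

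Relative to its chromosomal neighbours, ATP6AP1 turned from -0.59 to 0.97 (untreated) and TPP1 from -0.75 to 0.09 (treated). The uncalled interaction of LAMP1 (-0.54) ran from -0.86 to 0.45 as each library was left out (0.45 without WT butyrate replicate 1) and was 0.14 without the libraries numbered 1. LIPA, whose treated WT counts lie in replicate 3 alone, went to 0.00 (butyrate in WT) and 0.30 (interaction, from -3.7 over all such fits) without it. Over 117 named differences and 1743 alternative values, 1480 kept direction and call, 159 lost and 61 gained a call, 37 moved with the neighbours and 6 turned. Depth limits LIPA, whose level in untreated WT lies under a floor of 3 counts, 0.101 to 0.163 CPM.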
